A study of Mus musculus with 12 samples.

Results

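The genes described here are 31 genes of fatty acid oxidation and of the response to peroxisome proliferator-activated receptors (PPARs), taken by symbol from the 24391 genes listed for each library. They were measured in colon epithelial cells scraped from C57BL/6 mice, 18 weeks old, in 12 RNA-seq libraries. The 3 groups were mice given AOM and DSS with curcumin, mice given AOM and DSS, and control mice, with 4 libraries each. AOM is azoxymethane, a carcinogen, and DSS is dextran sulfate sodium, which injures and inflames the colon lining. Curcumin is a polyphenol of turmeric. Doses, the timing of each agent and the number of tumours are not given in the sources used here. Tumours of the right colon and the proximal piece were cut away before scraping, so the material is mucosa with its surface and crypt cells together and not isolated tumour. The labels do not say whether each library is a separate animal, so every p-value measures the spread between these libraries.

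Fatty acids enter mitochondria through the carnitine shuttle and are shortened by repeated cycles of dehydrogenation, hydration, a further dehydrogenation and thiolysis. Electrons from the dehydrogenases pass to the respiratory chain through electron transfer flavoproteins. Colonocytes burn butyrate made by gut bacteria through the short-chain steps of these cycles. PPARs are nuclear receptors that bind fatty acids and, with the retinoid X receptor (RXR), activate many genes of fatty acid oxidation. Ppargc1a and Creb3l3 encode regulators that work with them.

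The epithelial markers Epcam, Cdh1, Krt8, Krt18, Krt19, Vil1 and Cldn7 summed to 5316 to 9497 FPKM in curcumin libraries, 5214 to 8182 FPKM in AOM/DSS libraries and 5661 to 8284 FPKM in control libraries, and 0 of the 7 passed the limma test in any comparison, with 1, Cdh1 in curcumin against control, at an unadjusted p under 0.05. FPKM scales the reads of a gene by its length and by the depth of the library. Libraries held 5567988 to 15968416 reads assigned to genes. Libraries 0 and 1 of the curcumin group, 0 and 1 of the AOM/DSS group and 0 of the control group had relatively more signal in GC-rich genes than the other 7 (correlation of each gene's deviation with GC content 0.224 to 0.489, against -0.408 to -0.124). Results are therefore also given within each of these classes. In whole scrapings, fewer cells of a type and less RNA per cell cannot be told apart.

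Of the 31 genes, 30 passed the filter of 1 FPKM in at least 4 libraries, and Cd36 did not. Most were abundant: 16 averaged 100 FPKM or more over the 12 libraries, 7 averaged 30 to 100 FPKM, 4 averaged 5 to 30 FPKM and 4 averaged less than 5 FPKM. Ucp2, a mitochondrial carrier of the inner membrane, was highest with a mean of 432 FPKM, and Cd36 was lowest with 0.233 FPKM. The enzymes of the mitochondrial cycle varied little. Across 12 libraries the highest value was 1.32 times the lowest for Echs1 and 2.21 times for Acads. Among genes above 0 in all 12 libraries, the wide ranges lay in Creb3l3 (31.5 times), Angptl4 (36.8 times), Pdk4 (26.2 times) and Fabp2 (9.01 times). Fabp1 (0 to 4.402 FPKM) and Cd36 (0 to 0.631 FPKM) have no such ratio, because their lowest value was 0.

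**Figure D1:**
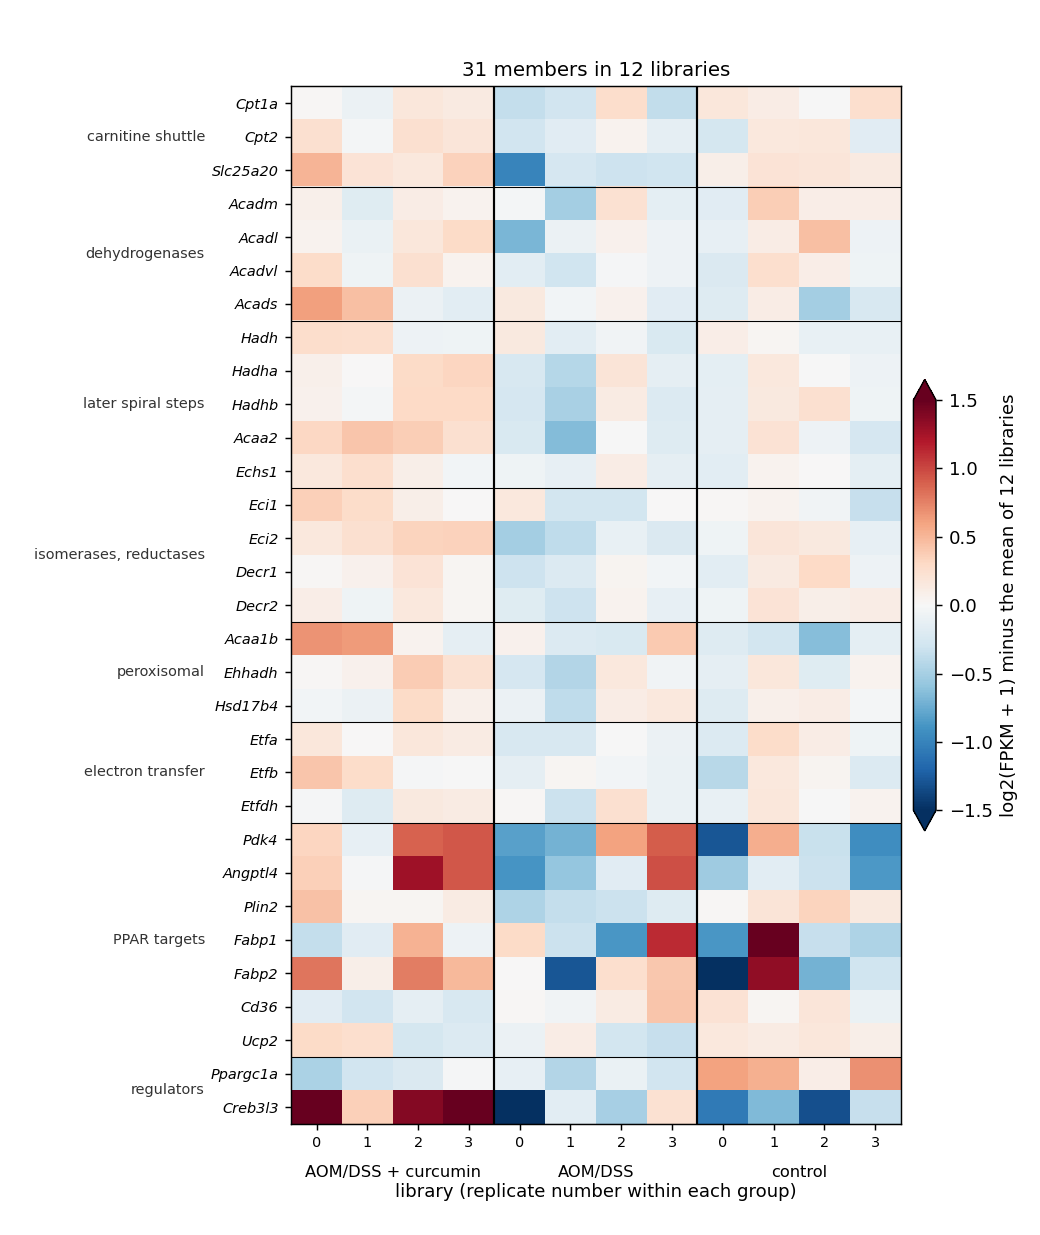
Each cell gives the log2(FPKM + 1) of a gene (rows, grouped by role) in a library (columns, grouped as AOM/DSS with curcumin, AOM/DSS and control) minus the gene's mean over the 12 libraries, with colours limited to 1.5 either way. Creb3l3 is high in the 4 curcumin libraries, Ppargc1a is high in the 4 control libraries, and Slc25a20, Eci2 and Plin2 are low in the 4 AOM/DSS libraries.

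Genes were tested with limma on log2(FPKM + 1) over all 12052 genes that passed the filter, and called at a Benjamini-Hochberg adjusted p below 0.05. Set against AOM/DSS alone, curcumin libraries had 3 of the 30 tested genes higher and 0 lower at this threshold. They were Slc25a20, Eci2 and Creb3l3. Over all genes, 0.73% were called higher and 0.348% lower in this comparison. At an unadjusted p under 0.05 there were 11 of 30, against 14.5% of all genes. In mean log2(FPKM + 1), the scale of every count of higher means given here, 28 of 30 (93.3%) were higher with curcumin, against 49.1% of all genes tested. The median log2 fold change was 0.27, against -0.01 over all genes. Groups did not overlap for 6 genes on the higher side (Slc25a20, Acaa2, Etfa, Eci2, Plin2 and Creb3l3) and for 0 tested genes on the lower side, where 4.95% and 4.27% of all genes did so. The changes were mostly small, and 27 of the 30 were not called.

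Set against control, AOM/DSS libraries had 0 of 30 genes higher and 1 lower, Ppargc1a, where 0.456% of all genes were called higher and 0.813% lower. At an unadjusted p under 0.05 there were 5 of 30, against 13.5% of all genes. In mean log2(FPKM + 1) 9 of 30 were higher, against 52.8% of all genes, and the median log2 fold change was -0.13, against 0.02 over all genes. This median was -0.06 without AOM/DSS library 1 or without control library 1, -0.20 without AOM/DSS library 2 and -0.21 without control library 0. The groups did not overlap for 0 genes on the higher side and for 3 on the lower side (Slc25a20, Plin2 and Ppargc1a), with 2.38% and 3.63% over all genes. Both this comparison and the preceding one use the same 4 AOM/DSS libraries. A low value in those libraries therefore enters both with opposite sign, and their values are not independent.

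Set against control, curcumin libraries had 0 of 30 genes called by limma, with 7 at an unadjusted p under 0.05, against 12.2% of all genes. Over all genes 0.0913% were called higher and 0.0498% lower. In mean log2(FPKM + 1) 23 of 30 (76.7%) were higher, against 52.5% of all genes, and the median log2 fold change was 0.14, against 0.01 over all genes. Groups did not overlap for 4 tested genes on the higher side (Acaa1b, Acaa2, Angptl4 and Creb3l3) and for 1 on the lower side, Ppargc1a, where 3.72% and 4.55% of all genes did so.

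**Figure D2:**
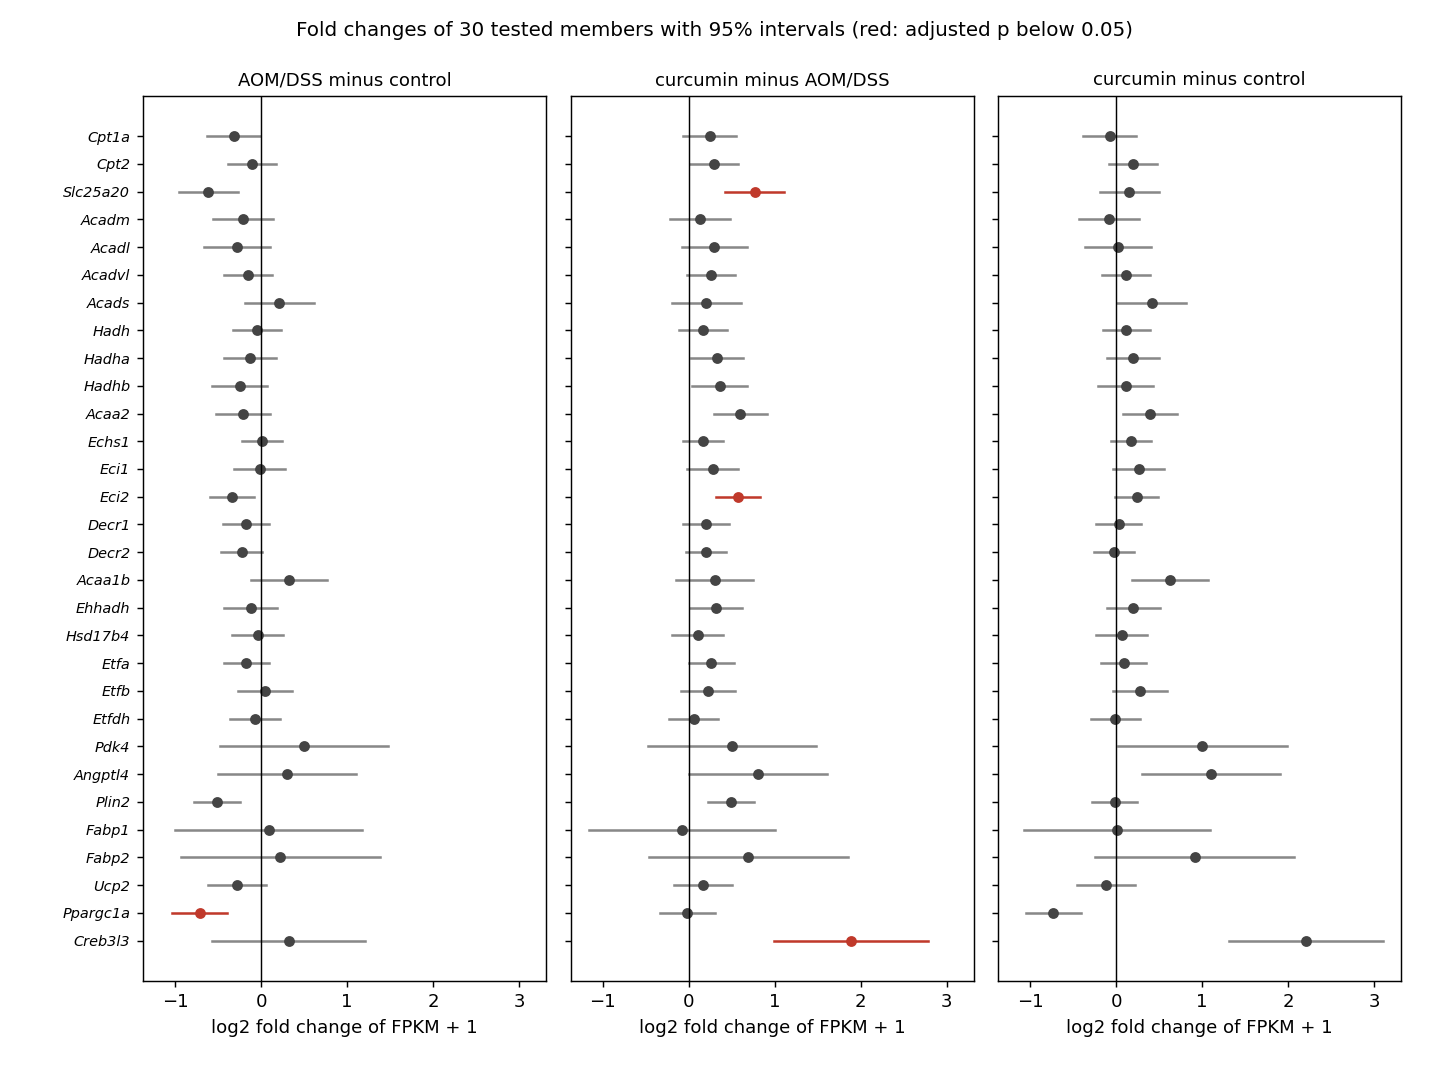
Points are log2 fold changes of FPKM + 1 and lines are 95% intervals for the 30 tested genes in each comparison, with called genes in red. Most points sit right of 0 in curcumin minus AOM/DSS (28 of 30) and left of 0 in AOM/DSS minus control (21 of 30), and most intervals cross 0.

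The promoters of the 4 called genes are shown because the pathway is known for regulation at its promoters by PPARs. Each window runs from 250 bases before the transcription start to 50 after it, in RefSeq on mouse build GRCm38.p6, 5′ to 3′ on the gene's strand. Capitals mark the hexamer AGGTCA bound by each partner of a PPAR and RXR pair, and the GC box GGGCGG bound by Sp family factors, on either strand. No marked hexamer overlapped a marked GC box.
Slc25a20, chr9:108661886-108662185, plus strand: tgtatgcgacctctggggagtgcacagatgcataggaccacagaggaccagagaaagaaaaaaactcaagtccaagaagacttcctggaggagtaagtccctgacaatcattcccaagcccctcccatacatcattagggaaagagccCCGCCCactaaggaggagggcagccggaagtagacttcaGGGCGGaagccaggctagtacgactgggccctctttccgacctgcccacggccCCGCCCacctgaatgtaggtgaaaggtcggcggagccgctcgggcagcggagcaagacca
Eci2, chr13:34994095-34994394, minus strand: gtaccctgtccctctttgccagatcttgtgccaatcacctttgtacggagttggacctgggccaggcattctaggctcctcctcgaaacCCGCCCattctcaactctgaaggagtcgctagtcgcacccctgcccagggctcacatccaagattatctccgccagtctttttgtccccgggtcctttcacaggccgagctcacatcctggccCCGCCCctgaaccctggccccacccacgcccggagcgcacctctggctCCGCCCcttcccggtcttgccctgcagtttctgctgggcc
Creb3l3, chr10:81092542-81092841, minus strand: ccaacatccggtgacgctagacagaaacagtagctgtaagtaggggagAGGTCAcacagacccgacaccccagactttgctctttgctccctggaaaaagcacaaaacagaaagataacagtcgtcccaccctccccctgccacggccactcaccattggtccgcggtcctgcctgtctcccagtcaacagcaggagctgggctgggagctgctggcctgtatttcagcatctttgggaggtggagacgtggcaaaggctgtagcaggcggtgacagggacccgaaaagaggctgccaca
Creb3l3, chr10:81098823-81099122, minus strand: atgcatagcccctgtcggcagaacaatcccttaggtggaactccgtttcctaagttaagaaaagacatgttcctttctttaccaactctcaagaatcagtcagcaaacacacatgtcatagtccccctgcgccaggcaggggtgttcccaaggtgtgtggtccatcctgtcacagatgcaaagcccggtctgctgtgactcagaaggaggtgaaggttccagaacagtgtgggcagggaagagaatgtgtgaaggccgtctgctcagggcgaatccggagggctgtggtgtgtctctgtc
Ppargc1a, chr5:51567676-51567975, minus strand: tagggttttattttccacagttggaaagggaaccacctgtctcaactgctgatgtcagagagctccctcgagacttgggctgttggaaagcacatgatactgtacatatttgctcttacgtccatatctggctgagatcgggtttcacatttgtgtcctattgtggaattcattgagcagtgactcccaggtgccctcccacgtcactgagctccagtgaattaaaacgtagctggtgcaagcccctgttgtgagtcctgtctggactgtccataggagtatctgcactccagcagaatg
Slc25a20 and Eci2 each held 3 GC boxes and 0 hexamers. The first Creb3l3 window held 1 hexamer, starting 202 bases before the start, and the second held neither motif, as did that of Ppargc1a. RefSeq windows were found for 27 of the 31 genes, 28 windows in all. The hexamer was in 8 of 28 (28.6%), against 16.3% of 32851 promoter windows in the table, and the GC box in 18 of 28 (64.3%), against 35.7%. The hexamer repeated after a spacer of 1 base, the arrangement a PPAR and RXR pair binds, was in 0 of 28 windows and in 0.0396% of all. With any base allowed at the fourth position of each hexamer, the repeat was in 1 window, that of Fabp1 (3.57%, against 0.381% of all). A match is a description of these letters and not of binding.

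The carnitine shuttle had 1 of its 3 genes called. Slc25a20 encodes the carnitine-acylcarnitine translocase, which carries acylcarnitines across the inner mitochondrial membrane. Slc25a20 had 269, 217, 211 and 241 FPKM in curcumin libraries, 94.6, 159, 152 and 153 FPKM in AOM/DSS libraries and 201, 217, 214 and 207 FPKM in control libraries. All 4 AOM/DSS libraries lay below the 8 others, and the lowest of them, library 0, stood well below the other AOM/DSS libraries. Slc25a20 rose with curcumin against AOM/DSS by a log2 fold change of 0.77 (SE 0.16, 95% interval 0.42 to 1.11), 1.68 times by means, with limma adjusted p = 0.0352. Against control its log2 fold change was -0.61 in AOM/DSS libraries (limma adjusted p = 0.0829) and 0.15 in curcumin libraries (adjusted p = 0.737), and neither passed. The call against AOM/DSS ended without curcumin library 0, 1, 2 or 3, AOM/DSS library 2 or 3, or control library 2 or 3, each taken out alone, with limma adjusted p between 0.0511 and 0.113 in those 8 fits.

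Cpt1a encodes the outer membrane carnitine palmitoyltransferase, the rate-setting step of entry. Cpt1a had 105, 96.8, 116 and 113 FPKM in curcumin libraries, 80.2, 84.5, 123 and 79.5 FPKM in AOM/DSS libraries and 116, 112, 102 and 123 FPKM in control libraries. In 3 AOM/DSS libraries it lay below all others, and AOM/DSS library 2 was the highest of the 12. Its log2 fold change was 0.24 (SE 0.14) for curcumin against AOM/DSS and -0.32 (SE 0.14) for AOM/DSS against control, with limma adjusted p of 0.466 and 0.349. Cpt2, which releases the acyl group inside the mitochondrion, averaged 76.99 ± 6.66, 62.5 ± 6.42 and 67.8 ± 10.4 FPKM in curcumin, AOM/DSS and control libraries (SD, n = 4 each) and was not called.

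The acyl-CoA dehydrogenases catalyse the first step of each cycle and differ in the chain length they accept, from very long (Acadvl) through long (Acadl) and medium (Acadm) to short (Acads). None of the 4 was called by limma in any comparison, and 1 (Acads, curcumin against control) had an unadjusted p under 0.05. Acadm had 111, 92.2, 113 and 109 FPKM in curcumin libraries, 103, 73.4, 124 and 94.7 FPKM in AOM/DSS libraries and 93.4, 136, 113 and 113 FPKM in control libraries. These groups overlapped throughout, with a log2 fold change of 0.13 (SE 0.16, 95% interval -0.22 to 0.48) for curcumin against AOM/DSS. Acads, the enzyme that handles butyrate, had 215, 191, 131 and 126 FPKM in curcumin libraries, 155, 136, 147 and 124 FPKM in AOM/DSS libraries and 122, 151, 97.5 and 118 FPKM in control libraries. The 2 highest values were in the GC-rich curcumin libraries 0 and 1, and the other 2 curcumin libraries lay within the range of the other groups. Acadl averaged 149 ± 16.9, 123 ± 25.7 and 148 ± 28.3 FPKM and Acadvl 130.2 ± 14.4, 108 ± 8.89 and 121 ± 17.2 FPKM in curcumin, AOM/DSS and control libraries (SD, n = 4 each). In the GENCODE M21 annotation, 42.9% of Acadvl exon bases lie within exons of Dvl2, so its level is uncertain.

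The later mitochondrial steps had 0 of 5 genes called by limma, and all 5 were higher in mean with curcumin than with AOM/DSS (median log2 fold change 0.33, with 3 at an unadjusted p under 0.05). Acaa2 encodes the thiolase that closes the mitochondrial cycle. Acaa2 had 123, 133, 129 and 117 FPKM in curcumin libraries, 84.98, 62.9, 98.7 and 86.9 FPKM in AOM/DSS libraries and 90.4, 116, 94.6 and 83.4 FPKM in control libraries. The 4 curcumin libraries were the highest of the 12. The log2 fold change was 0.60 (SE 0.14, 95% interval 0.29 to 0.92) against AOM/DSS, with limma adjusted p = 0.0672, and 0.39 (SE 0.14) against control, with adjusted p = 0.301. Against AOM/DSS it passed when GC class was a covariate (limma adjusted p = 0.0427), when the GC trend was removed (0.0374) and with library weights (0.0250). These were 3 of 27 alternative fits.

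Hadha and Hadhb encode the alpha and beta subunits of the trifunctional protein, which carries out the last steps for long chains. Their RefSeq promoter windows face away from each other and share 228 bases, chr5:30155003-30155230 on GRCm38.p6. Hadha had 110.4, 106, 129 and 131 FPKM in curcumin libraries, 88.9, 77.9, 119.7 and 95.3 FPKM in AOM/DSS libraries and 94.6, 117, 104 and 99.4 FPKM in control libraries. Hadhb had 166, 156, 197 and 196 FPKM in curcumin libraries, 134, 114, 174 and 138 FPKM in AOM/DSS libraries and 145, 177, 189 and 152 FPKM in control libraries. Both had their highest values in curcumin libraries 2 and 3 and their lowest in AOM/DSS library 1, and their groups overlapped. For curcumin against AOM/DSS the log2 fold change was 0.33 (SE 0.14) for Hadha and 0.36 (SE 0.15) for Hadhb, with limma adjusted p of 0.3 and 0.276. Hadh, the short-chain hydroxyacyl dehydrogenase, averaged 221 ± 29.6, 196 ± 22.6 and 202 ± 15.4 FPKM, and Echs1, the short-chain hydratase, averaged 133 ± 11.05, 118 ± 9.67 and 118 ± 8.76 FPKM in curcumin, AOM/DSS and control libraries (SD, n = 4 each).

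Unsaturated fatty acids need isomerases and reductases besides the main cycle, and 1 of these 4 genes was called. Eci2 encodes an enoyl-CoA isomerase that moves double bonds into a position the cycle can use. Eci2 had 41.3, 43.5, 46.9 and 47.1 FPKM in curcumin libraries, 25.7, 27.99, 34.2 and 31.7 FPKM in AOM/DSS libraries and 35.1, 41.95, 40.8 and 33.7 FPKM in control libraries. Curcumin libraries lay above all AOM/DSS libraries, and the control libraries overlapped both groups. Eci2 rose with curcumin against AOM/DSS by a log2 fold change of 0.57 (SE 0.12, 95% interval 0.32 to 0.83), 1.5 times by means, with limma adjusted p = 0.0336. Its log2 fold change was -0.33 for AOM/DSS against control and 0.24 for curcumin against control, not called (limma adjusted p = 0.215 and 0.441). The call against AOM/DSS ended without any 1 of the 4 curcumin libraries or without AOM/DSS library 0, 1 or 3, with limma adjusted p between 0.0620 and 0.115 in those 7 fits. Eci1, Decr1 and Decr2 were not called. Eci1 averaged 52.6 ± 6.01, 43.2 ± 6.63 and 43.7 ± 5.34 FPKM, Decr1 39.3 ± 2.43, 34.1 ± 3.79 and 38.8 ± 5.85 FPKM and Decr2 33.4 ± 2.27, 29.003 ± 3.202 and 34.1 ± 2.68 FPKM in curcumin, AOM/DSS and control libraries (SD, n = 4 each).

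**Figure D3:**
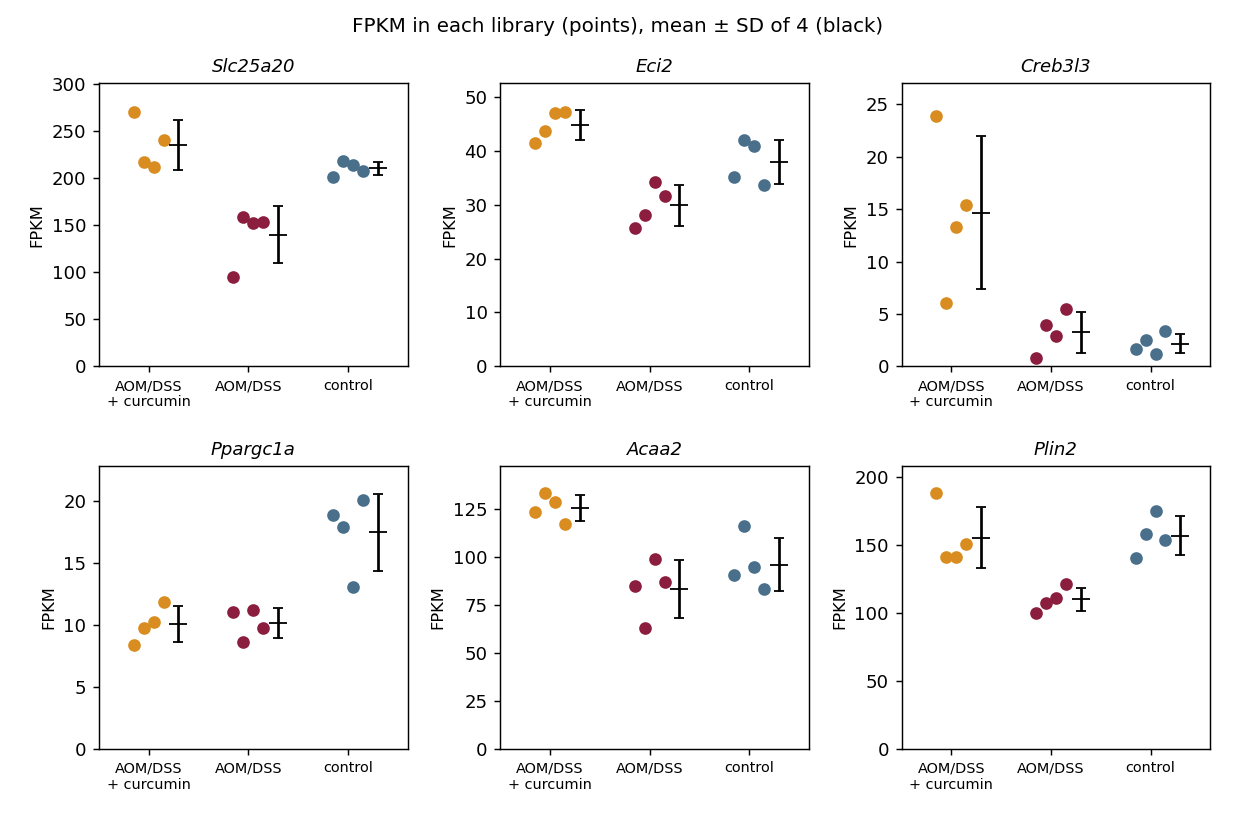
Points are FPKM in each library, in the order of replicate numbers 0 to 3, and black marks are the mean ± SD of 4 libraries in each of the 3 groups. Slc25a20 and Plin2 have AOM/DSS libraries below both other groups, Ppargc1a has its lowest control library, 13.0 FPKM, above the 8 AOM-treated libraries, and Creb3l3 has its lowest curcumin library, 6.10 FPKM, above the 8 other libraries.

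Peroxisomes shorten very long and branched chains with their own enzymes. Of the 3 genes grouped here as peroxisomal, limma called 0. At an unadjusted limma p under 0.05 there was 1 for curcumin against AOM/DSS (Ehhadh) and 1 for curcumin against control (Acaa1b). Decr2 and the called gene Eci2 were grouped by reaction, with the isomerases and reductases, and not by their place in the cell. Acaa1b, a peroxisomal thiolase, had 17.5, 17.05, 10.998 and 9.602 FPKM in curcumin libraries, 11.1, 9.05, 8.93 and 14.3 FPKM in AOM/DSS libraries and 9.14, 8.61, 6.45 and 9.45 FPKM in control libraries. Every curcumin library exceeded every control library, and 2 of the 4 lay within the AOM/DSS range. The log2 fold change against control was 0.62 (SE 0.20, 95% interval 0.18 to 1.06), with limma adjusted p = 0.243. Acaa1b has a near-identical copy, Acaa1a, and the counting may have split reads between them, so its level is uncertain. Acaa1a itself averaged 98.8 ± 28.7, 70.2 ± 6.81 and 71.7 ± 6.37 FPKM in curcumin, AOM/DSS and control libraries (SD, n = 4 each). The bifunctional enzymes averaged 25.3 ± 3.01, 20.3 ± 3.78 and 21.97 ± 2.596 FPKM for Ehhadh and 36.3 ± 4.51, 33.9 ± 5.57 and 34.6 ± 3.29 FPKM for Hsd17b4 in the same order (SD, n = 4 each).

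The electron transfer flavoprotein subunits Etfa and Etfb and their dehydrogenase Etfdh were not called. Etfa had 151, 134, 151 and 146 FPKM in curcumin libraries, 113, 113, 133 and 126 FPKM in AOM/DSS libraries and 116, 162, 144 and 128 FPKM in control libraries. Its lowest curcumin library was just above its highest AOM/DSS library, and the control libraries overlapped both groups. Its log2 fold change was 0.26 (SE 0.12, 95% interval 0.00 to 0.53) for curcumin against AOM/DSS, with limma adjusted p = 0.344. Etfb averaged 212 ± 31.4, 179 ± 9.08 and 175 ± 30.5 FPKM and Etfdh 50.6 ± 5.39, 48.8 ± 8.09 and 50.9 ± 4.32 FPKM in curcumin, AOM/DSS and control libraries (SD, n = 4 each). Of Etfb exon bases 58.2% lie within exons of Gm45233 or Mir7051 in GENCODE M21.

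Among 7 well-known PPAR targets outside the oxidation cycle, 0 of the 6 tested was called by limma in any comparison, with an unadjusted p under 0.05 for 1 in AOM/DSS against control (Plin2), for 2 in curcumin against AOM/DSS (Plin2 and Angptl4) and for 2 in curcumin against control (Pdk4 and Angptl4). Plin2 coats lipid droplets. Plin2 had 188, 141, 141 and 150.4 FPKM in curcumin libraries, 100.1, 107, 111 and 121 FPKM in AOM/DSS libraries and 140.0, 158, 175 and 154 FPKM in control libraries. The 4 AOM/DSS libraries lay below the 8 others, which overlapped each other. The log2 fold change was 0.49 (SE 0.12, 95% interval 0.22 to 0.76) for curcumin against AOM/DSS and -0.51 (SE 0.12, 95% interval -0.78 to -0.24) for AOM/DSS against control, with limma adjusted p of 0.0828 and 0.0664. AOM/DSS against control passed with the GC trend removed (limma adjusted p = 0.0492), library weights (0.0440), quantile normalization (0.0394) or curcumin library 0 left out (0.0423), and curcumin against AOM/DSS passed with library weights (0.0377). These were 4 and 1 of 27 alternative fits.

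Pdk4 and Angptl4, which respond strongly to PPAR agonists in other tissues, were near the lower limit here. Pdk4 encodes a kinase that shuts off pyruvate dehydrogenase, and it had 2.54, 1.601, 4.24 and 4.43 FPKM in curcumin libraries, 0.6197, 0.734, 3.31 and 4.34 FPKM in AOM/DSS libraries and 0.169, 3.14, 1.25 and 0.489 FPKM in control libraries. Angptl4 encodes an inhibitor of lipoprotein lipase, and it had 1.63, 1.02, 3.94 and 2.91 FPKM in curcumin libraries, 0.107, 0.363, 0.825 and 2.99 FPKM in AOM/DSS libraries and 0.409, 0.828, 0.641 and 0.127 FPKM in control libraries. Both had wide spreads within groups. Angptl4 rested on 29, 19, 121 and 92 reads in curcumin libraries, 2, 6, 18 and 85 in AOM/DSS libraries and 8, 8, 17 and 3 in control libraries. Its lowest curcumin library was above its highest control library, with a log2 fold change of 1.11 (SE 0.37, 95% interval 0.31 to 1.91) and limma adjusted p = 0.252. It passed in 1 of 26 alternative fits, with library weights (limma adjusted p = 0.0242). Library weights called 491 of all genes in this comparison, against 17 in the main fit. For Pdk4 the log2 fold change was 1.00 (SE 0.45, 95% interval 0.03 to 1.98) for curcumin against control, with limma adjusted p = 0.399.

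The fatty acid binding proteins Fabp1 and Fabp2 carry fatty acids through the cytoplasm of enterocytes. Fabp2 had 389, 236, 381 and 312 FPKM in curcumin libraries, 224, 90.6, 266 and 294 FPKM in AOM/DSS libraries and 62.03, 559, 136 and 180.3 FPKM in control libraries. Control library 1 was the highest of the 12 and control library 0 the lowest. Fabp1 was at 0.434, 0.624, 1.64 and 0.735 FPKM in curcumin libraries, 1.24, 0.468, 0 and 2.99 FPKM in AOM/DSS libraries and 0, 4.402, 0.437 and 0.327 FPKM in control libraries. It is listed at 0 in 2 libraries, AOM/DSS library 2 and control library 0, and control library 1 was again the highest. Neither gene was called. The log2 fold change for curcumin against AOM/DSS was 0.69 (SE 0.54, 95% interval -0.47 to 1.85) for Fabp2 and -0.08 (SE 0.50, 95% interval -1.16 to 1.01) for Fabp1. Ucp2 averaged 439 ± 88.2, 388 ± 56.3 and 468 ± 11.8 FPKM in curcumin, AOM/DSS and control libraries (SD, n = 4 each) and was not called.

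Cd36 encodes a fatty acid uptake receptor that is strong in macrophages, adipocytes and small vessels. Cd36 had 0.0816, 0, 0.111 and 0.0307 FPKM in curcumin libraries, 0.234, 0.176, 0.333 and 0.631 FPKM in AOM/DSS libraries and 0.421, 0.251, 0.384 and 0.143 FPKM in control libraries. These values rest on 3, 0, 7 and 2 reads in curcumin libraries, 9, 6, 15 and 37 in AOM/DSS libraries and 17, 5, 21 and 7 in control libraries. Every curcumin library was below the 8 others, and curcumin library 1 is listed at 0. A two-sided exact permutation test gave p = 0.0286 for curcumin against AOM/DSS and the same p against control. This is the smallest p that 4 against 4 libraries can give, and it restates that the groups did not overlap. On the lower side 4.27% of the 12052 genes tested by limma did so against AOM/DSS and 4.55% against control. After adjustment over the 3 comparisons of this gene the permutation p was 0.0429. That adjustment does not cover the other genes, as the limma adjustment does. The same exact permutation test gave p = 0.8 for AOM/DSS against control. In limma without the filter, over the 19233 genes above 0 in any library, the adjusted p was 0.185 for curcumin against AOM/DSS and 0.318 against control. Of cell types that carry Cd36, macrophage markers (8 genes) summed to 2.41 to 9.47 FPKM in curcumin libraries, 7.24 to 21.6 FPKM in AOM/DSS libraries and 3.08 to 9.99 FPKM in control libraries. Endothelial markers (7 genes) summed to 4.40 to 5.50 FPKM in curcumin libraries, 2.62 to 6.90 FPKM in AOM/DSS libraries and 4.05 to 9.38 FPKM in control libraries. Of the 7, 1 passed the filter and was higher in mean with curcumin than with AOM/DSS (log2 fold change 0.749), not called by limma. Adipocyte markers (7 genes) summed to 4.16 to 7.73 FPKM in curcumin libraries, 2.58 to 11.4 FPKM in AOM/DSS libraries and 2.69 to 11.5 FPKM in control libraries, with the defining markers Plin1, Lep and Retn at 0 in all 12. The 2 adipocyte markers that passed the filter had fold changes of opposite sign. Fabp4, a fatty acid binding protein of adipocytes and small vessels, had 0.833, 0.639, 1.16 and 0.09399 FPKM in curcumin libraries, 4.45, 1.44, 2.99 and 6.79 FPKM in AOM/DSS libraries and 3.64, 2.76, 10.7 and 1.13 FPKM in control libraries, from 1 to 12 reads a library with curcumin. Its curcumin libraries lay below all AOM/DSS libraries, as those of Cd36 did, with a log2 fold change of -1.47 (SE 0.46, 95% interval -2.46 to -0.47), not called (limma adjusted p = 0.159). Cidec, a lipid droplet protein, had a log2 fold change of 0.92 (SE 0.32, 95% interval 0.24 to 1.60) for the same comparison, also not called (limma adjusted p = 0.198). The part of these cells in the Cd36 difference was not tested.

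The regulators moved in different patterns. Ppargc1a encodes PGC-1 alpha, a coactivator that drives mitochondrial and fatty acid oxidation genes. Ppargc1a had 8.37, 9.72, 10.3 and 11.8 FPKM in curcumin libraries, 11.01, 8.62, 11.2 and 9.73 FPKM in AOM/DSS libraries and 18.9, 17.9, 13.02 and 20.02 FPKM in control libraries. All 8 AOM-treated libraries lay below the 4 control libraries, and curcumin and AOM/DSS libraries overlapped. Ppargc1a fell in AOM/DSS against control, with a log2 fold change of -0.72 (SE 0.15, 95% interval -1.03 to -0.40) and limma adjusted p = 0.0357. Curcumin against control gave -0.73 (SE 0.15, 95% interval -1.05 to -0.41), not called (adjusted p = 0.0795), and curcumin against AOM/DSS gave -0.02 (SE 0.15, 95% interval -0.33 to 0.30). Adjustment was made within each comparison. The unadjusted limma p was 2.62e-04 for curcumin against control and 3.15e-04 for AOM/DSS against control. The AOM/DSS call ended without AOM/DSS library 0, 1 or 3, curcumin library 1 or 2, or control library 0, 1 or 3, with limma adjusted p between 0.0577 and 0.139 in those 8 fits. The curcumin comparison with control passed without control library 2, the lowest of its group (limma adjusted p = 0.0312), and with library weights (0.00946). These were 2 of 27 alternative fits.

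Creb3l3 encodes a membrane-bound transcription factor of liver and intestine that acts with PPAR alpha in lipid metabolism. Creb3l3 had 23.9, 6.098, 13.3 and 15.4 FPKM in curcumin libraries, 0.759, 3.94, 2.902 and 5.46 FPKM in AOM/DSS libraries and 1.66, 2.501, 1.23 and 3.35 FPKM in control libraries. All 4 curcumin libraries exceeded the 8 others, with a spread among them wider than in either other group, and AOM/DSS and control libraries overlapped. Creb3l3 rose with curcumin against AOM/DSS by a log2 fold change of 1.89 (SE 0.41, 95% interval 1.00 to 2.78), 4.5 times by means, with limma adjusted p = 0.0487. Against control the log2 fold change was 2.21 (SE 0.41, 95% interval 1.32 to 3.10), 6.72 times by means, with adjusted p = 0.0591. The unadjusted limma p was 1.34e-04 against control and 5.25e-04 against AOM/DSS. The call against AOM/DSS ended without AOM/DSS library 0, 1 or 2, curcumin library 0, 2 or 3, or any 1 of the 4 control libraries, with limma adjusted p between 0.0576 and 0.141 in those 10 fits. The comparison with control passed without AOM/DSS library 0 (limma adjusted p = 0.0437), with the other group left out of the fit (0.0437), with GC class as a covariate (0.0436), with a filter of 5 FPKM (0.0468) and with library weights (0.00894). These were 5 of 27 alternative fits.

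The libraries differed in how the 30 genes sat as a set. The median deviation from each gene's mean over 12 libraries was highest in curcumin library 0 (log2 0.21) and lowest in AOM/DSS library 1 (log2 -0.30). Curcumin library 0 held the highest value of 10 of the 31 genes, and AOM/DSS libraries 1 and 0 held the lowest value of 10 and 8. These 3 libraries are all in the GC-rich class. Within that class, with 2 curcumin and 2 AOM/DSS libraries, the median log2 fold change of the 30 tested genes for curcumin against AOM/DSS was 0.37. Within the AT-rich class, also 2 against 2, it was 0.19. In each class 28 of 30 genes were higher in mean with curcumin. In 26 genes this held in both classes, and 27 had the larger fold change in the GC-rich class.

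**Figure D4:**
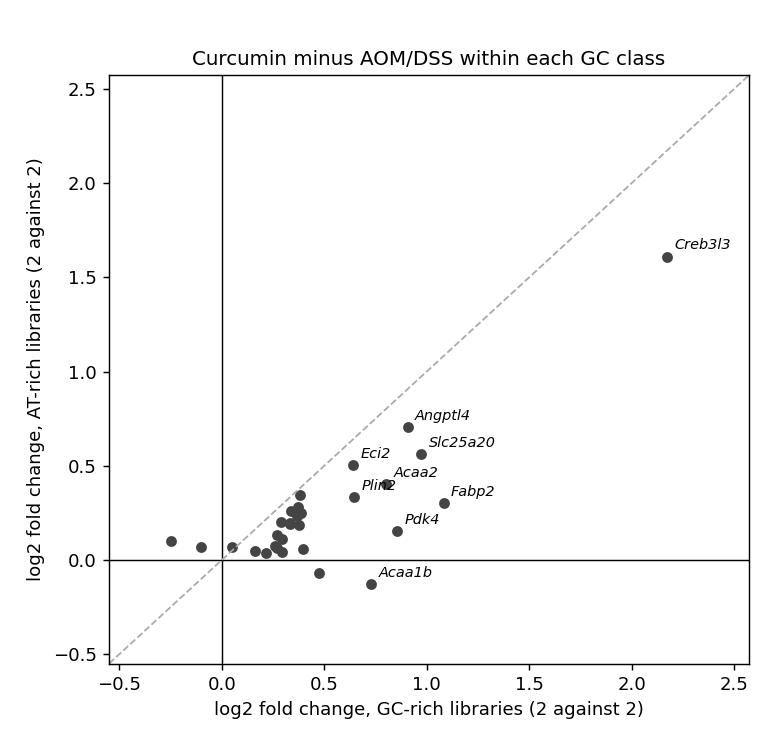
Each point is 1 of the 30 tested genes, placed by its log2 fold change for curcumin minus AOM/DSS in the GC-rich libraries (horizontal) and in the AT-rich libraries (vertical), with the dashed line marking equal values. Points lie above 0 on both axes for 26 genes and below the dashed line for 27.

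The 3 genes called against AOM/DSS kept their direction within each class, and none passed there. Slc25a20 had a log2 fold change of 0.97 in the GC-rich class and 0.56 in the AT-rich class, Eci2 had 0.64 and 0.50, and Creb3l3 had 2.17 and 1.61. The limma adjusted p lay between 0.255 and 0.378 for these 6 values, from 2 libraries a group. Ppargc1a, for AOM/DSS against control, had a log2 fold change of -0.89 in the GC-rich class, which holds 1 control library, and -0.63 in the AT-rich class, which holds 3.

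A wider list of 86 genes of fatty acid transport, oxidation, ketone metabolism, receptors and PPAR targets had 70 tested. In AOM/DSS against control 11 of the 70 had an unadjusted p under 0.05, where 13.5% of all genes did. Limma called 0 of the 70 higher and 1 lower there, where 0.456% of all genes were called higher and 0.813% lower. It was Oxct1, which lets cells use ketone bodies as fuel, with 117, 100.2, 116 and 118 FPKM in curcumin libraries, 79.4, 95.5, 103 and 102 FPKM in AOM/DSS libraries and 123, 146, 142 and 159 FPKM in control libraries. The control libraries lay above the 8 others. For AOM/DSS against control its log2 fold change was -0.58 (SE 0.12, 95% interval -0.84 to -0.31), with limma adjusted p = 0.0409. In curcumin against AOM/DSS limma called 0 of 70 (15 at an unadjusted p under 0.05, where 14.5% of all genes were), 53 were higher in mean (75.7%) and the median log2 fold change was 0.18. In curcumin against control limma called 0 of 70 (15 at an unadjusted p under 0.05, where 12.2% of all genes were), and 42 were higher in mean.

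The receptors themselves were not called. Ppard was the most abundant of them per length, with 98.3, 86.2, 57.4 and 61.4 FPKM in curcumin libraries, 102, 90.3, 72.6 and 52.6 FPKM in AOM/DSS libraries and 123, 74.5, 78.02 and 131 FPKM in control libraries. Pparg had 44.98, 30.8, 39.96 and 44.9 FPKM in curcumin libraries, 26.6, 27.2, 39.8 and 47.2 FPKM in AOM/DSS libraries and 27.7, 32.5, 24.7 and 38.001 FPKM in control libraries. Ppara was low, with group means of 3.41 ± 0.477, 3.97 ± 1.98 and 3.66 ± 0.881 FPKM in curcumin, AOM/DSS and control libraries (SD, n = 4 each). For curcumin against AOM/DSS the log2 fold change was -0.09 (SE 0.26, 95% interval -0.64 to 0.47) for Ppara, -0.06 (SE 0.25, 95% interval -0.60 to 0.48) for Ppard and 0.21 (SE 0.20, 95% interval -0.22 to 0.64) for Pparg. Their partner Rxra averaged 24.98 ± 3.48, 24.8 ± 1.89 and 28.5 ± 5.15 FPKM in curcumin, AOM/DSS and control libraries (SD, n = 4 each).

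Of 12 citrate cycle genes, 12 were higher in mean with curcumin than with AOM/DSS, with a median log2 fold change of 0.15, and of 12 respiratory chain genes 11 were, with a median of 0.11. Limma called 0 of these 24 genes, with 1 citrate cycle gene at an unadjusted p under 0.05.

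Other gene lists were measured across the same libraries. Surface colonocyte markers (6 genes) summed to 4431 to 7485 FPKM in curcumin libraries, 2872 to 3970 FPKM in AOM/DSS libraries and 3085 to 7130 FPKM in control libraries. Of the 6, limma called Slc26a3, Car4 and Aqp8 higher with curcumin against AOM/DSS, where 0.73% of all genes were. It called Slc26a3 and Car4 lower in AOM/DSS against control, where 0.813% of all genes were. In mean, 5 of the 6 were higher and 1 lower with curcumin against AOM/DSS, with a median log2 fold change of 0.754. In AOM/DSS against control 4 were lower and 2 higher, with a median of -0.687. Slc26a3, the chloride exchanger of surface cells, had 588, 507, 589 and 646 FPKM in curcumin libraries, 185, 249, 299 and 133 FPKM in AOM/DSS libraries and 553, 630.1, 534 and 779 FPKM in control libraries, and its AOM/DSS libraries lay below all others. Clock genes, which cycle with the time of day, were 13. With curcumin against AOM/DSS limma called 5 of them higher and 1 lower, where 0.73% and 0.348% of all genes were. It called 6 lower in AOM/DSS against control, where 0.813% of all genes were. In curcumin against control limma called 0 of the 13, also with 0 at an unadjusted p under 0.05. Small intestine markers (7 genes) summed to 21.6 to 32.4 FPKM in curcumin libraries, 19.5 to 49.6 FPKM in AOM/DSS libraries and 19.4 to 25.4 FPKM in control libraries, and limma called 0 of the 2 tested, also with 0 at an unadjusted p under 0.05.

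Markers of dividing crypt cells (6 genes) summed to 89.4 to 124 FPKM in curcumin libraries, 95.5 to 185 FPKM in AOM/DSS libraries and 70.6 to 186 FPKM in control libraries. In AOM/DSS against control all 6 were higher in mean, with a median log2 fold change of 0.88, and in curcumin against AOM/DSS all 6 were lower, with a median of -0.55. Limma called 0 of them, with 5 and 0 at an unadjusted p under 0.05 in these comparisons. Red blood cell markers (5 genes) summed to 25.9 to 37.1 FPKM in curcumin libraries, 17.5 to 326 FPKM in AOM/DSS libraries and 58.8 to 326 FPKM in control libraries. All 5 were lower in mean with curcumin, with a median log2 fold change of -1.44 against AOM/DSS and -1.78 against control, and the curcumin libraries lay below all control libraries for 5 of 5, where 4.55% of all genes did so. Limma called 0 of the 5, with 3 and 5 at an unadjusted p under 0.05. The 5 mark the same cells and include the globin genes Hbb-b1, Hbb-b2, Hba-a1 and Hba-a2, so they are not separate observations. B and plasma cell markers (6 genes) summed to 3.21 to 23.8 FPKM in curcumin libraries, 15.9 to 102.7 FPKM in AOM/DSS libraries and 10.1 to 35.9 FPKM in control libraries. All 6 were lower in mean with curcumin against AOM/DSS, with a median log2 fold change of -0.89, 0 called by limma and 2 at an unadjusted p under 0.05. In the same comparison all 4 tested macrophage markers, all 3 of smooth muscle, both of fibroblasts and both of T cells were lower in mean, with median log2 fold changes of -1.0002, -0.717, -0.997 and -0.620, and limma called 0 of them, with 3, 1, 0 and 1 at an unadjusted p under 0.05. The 1 endothelial marker tested went the other way, with a log2 fold change of 0.749 and groups that did not overlap. In AOM/DSS against control it was lower (-0.662), also without overlap. Limma called it in neither comparison, with an unadjusted p under 0.05 in both. The part of cell composition and of sampling time in the differences of the fatty acid oxidation genes was not tested.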

How the data were processed

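The deposited values are FPKM per gene symbol, in 1 file per library without a header, from total RNA of scraped colon epithelium. Per the submitters' processing notes, the build was mm9 and the tools were featureCounts 1.5.1, DESeq2 1.14.1, R 3.4.0, Picard, Bowtie2 2.2.6 and TopHat2 2.1.1, without their roles. Strand and annotation are not given in the sources used here. FPKM steps gave whole reads (tolerance 0.001) for all 19233 genes above 0, which supplied the depth per library, but tests used FPKM. Values were fitted as log2(FPKM + 1), which understates changes of low genes, with limma 3.58.1 in R 4.3.3. Genes with at least 1 FPKM in at least 4 libraries (12052) entered 1 model of all 12 libraries, with 9 residual degrees of freedom, an intensity trend and Benjamini-Hochberg adjustment. The fit was also run on simulated counts with known changes. Those counts held no GC classes, so that run does not bear on their effect. Cd36 was tested by exact permutation (scipy 1.17.1). GC content came from GENCODE M21, a later build, for 11968 of the tested genes (99.3%), and promoters from RefSeq. The members and all lists were chosen with earlier results of these data known. Members past the threshold, with the largest changes or well known were described by library. Etfa was added for its lack of overlap, and Hadhb was added beside Hadha. Alternatives covered scaling, filters, pseudocounts, GC, weights and left-out libraries. Some genes of the wider list are not reported here.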

Additional observations from a re-analysis of the deposited data

Results flagged for a closer look

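In 93 groups of 4 libraries (31 genes in 3 groups), Dixon's test at 95% set 3 single libraries apart from the other 3 of their group. Chance sets apart about 1 in 20 groups. Cpt1a in AOM/DSS library 2 was 123.5 FPKM, above the other 3 at 79.5 to 84.5 FPKM. Slc25a20 in AOM/DSS library 0 was 94.58 FPKM, below the other 3 at 152 to 159 FPKM, and without that library Slc25a20 still passed against AOM/DSS. Fabp1 in control library 1 was 4.402 FPKM, above the other 3 at 0 to 0.437 FPKM.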

How the results depend on the processing

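Over 27 alternatives no called gene changed sign. The count of genes higher in mean ran from 6 to 12 for AOM/DSS against control (9 of 30), 25 to 30 for curcumin against AOM/DSS (28) and 20 to 28 for curcumin against control (23). The median log2 fold change kept its sign. For AOM/DSS against control (-0.13) it was -0.08 in AT-rich libraries alone or with GC class as covariate, -0.06 with voom on recovered reads, and -0.21 to -0.06 with 1 library left out. For curcumin against AOM/DSS (0.27) it ran from 0.19 to 0.37. For curcumin against control (0.14) it was 0.08 in AT-rich libraries alone, 0.27 in GC-rich libraries alone and 0.21 with voom on recovered reads. The counts called did move. For AOM/DSS against control (1 gene) the count was 0 in AT-rich or GC-rich libraries alone, with values scaled to a common sum, with no filter, with only the groups compared in the fit and with voom on recovered reads, and 2 with the GC trend removed, library weights or quantile normalization. For curcumin against AOM/DSS (3 genes) it was 0 in AT-rich or GC-rich libraries alone and with only the groups compared, 1 with no filter and 5 with library weights. For curcumin against control (0 genes) it was 1 with a filter of 5 FPKM, GC class as covariate or only the groups compared, and 3 with library weights. With 1 library left out, the counts ranged from 0 to 2, 0 to 2 and 0 to 1 for these comparisons in turn. Over all 12052 genes, library weights called 288, 468 and 491 in the same order, against 153, 130 and 17 in the main fit. The causes were not tested. Of 27 alternatives, Slc25a20 and Eci2 lost their call in 13 each, Ppargc1a in 15 and Creb3l3 in 18. With replicate number as a block, 0 genes were called in each comparison. The calls of Slc25a20, Eci2, Creb3l3 and Ppargc1a therefore all ended under the block. The labels do not say that the numbers pair the libraries, so the block was kept as an alternative. Correlations of same-numbered libraries cannot decide this, because differently numbered libraries reached 0.499 (curcumin library 1 with control library 0). In the curcumin and AOM/DSS groups, libraries 0 and 1 were GC-rich and 2 and 3 were AT-rich. Of same-numbered pairs, 3 of 4 correlated over 0.1 in curcumin against AOM/DSS (0.036 to 0.357). In AOM/DSS against control 1 of 4 did (-0.287 to 0.456) and in curcumin against control 2 of 4 (-0.333 to 0.282). Depth limits Cd36, Fabp1 and Angptl4, which rest on few reads.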
